A study of Mus musculus with 8 samples.

Results

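The enzymes that write and erase methylation of lysine 4 on histone H3 were followed in the bulk RNA-seq libraries. The group was chosen by gene identity: it holds 9 of the 21950 genes of the count table, 6 methyltransferases (*Kmt2a*, *Kmt2b*, *Kmt2c*, *Kmt2d*, *Setd1a* and *Setd1b*) and 3 demethylases (*Kdm5a*, *Kdm5b* and *Kdm5c*), matched through their Entrez identifiers. Levels were compared between 4 pools of primordial germ cell-like cells (d6PGCLCs) and 4 pools of primordial germ cells (PGCs). The d6PGCLCs were derived from a single female BVSC-iPSC line, reprogrammed from tail tip fibroblasts, that carries the Blimp1-Venus and Stella-ECFP reporters, and were sorted for both reporters at day 8 of the culture. The PGCs were sorted for SSEA1 and integrin β3 from gonads of inbred C57BL/6J females at E12.5. Each pool held 30000 to 340000 cells and came from an independent experiment, but every d6PGCLC pool came from the same line, so that the spread among them does not include that between lines.

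Methyl groups on lysine 4 of histone H3 mark promoters and enhancers. SETD1A and SETD1B deposit most of the trimethylation at active promoters, KMT2A and KMT2B (also called MLL1 and MLL2) serve subsets of CpG-rich promoters, and KMT2C and KMT2D (MLL3 and MLL4) mainly deposit monomethylation at enhancers. All of these enzymes work in complexes with the core subunits WDR5, RBBP5, ASH2L and DPY30. The KDM5 proteins remove di- and trimethylation from the same residue. In the female germ line KMT2B is known for the broad domains of trimethylated lysine 4 that growing oocytes lay down away from active promoters.

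Promoter sequence is shown for the 3 methyltransferases with the largest differences between the groups, and for *Setd1a*, the methyltransferase with the highest length-scaled level, for contrast. RefSeq (GRCm38.p6) gave a window from 250 bases before to 50 bases after the start site for 6 of the 9 genes. No window was available for *Kmt2b*, *Setd1b* and *Kdm5a*, of which *Kmt2b* and *Kdm5a* were among the enzymes called lower below. A link between the motifs and the changes in level was not tested. In the sequences below, written 5′ to 3′ along the gene, capitals mark the GC box GGGCGG on either strand, where overlapping matches were counted separately. The *Kmt2a* window is chr9:44881240-44881539 on the minus strand, that of *Kmt2c* is chr5:25498734-25499033 on the minus strand, that of *Kmt2d* is chr15:98871156-98871455 on the minus strand and that of *Setd1a* is chr7:127777139-127777438 on the plus strand.
Kmt2a: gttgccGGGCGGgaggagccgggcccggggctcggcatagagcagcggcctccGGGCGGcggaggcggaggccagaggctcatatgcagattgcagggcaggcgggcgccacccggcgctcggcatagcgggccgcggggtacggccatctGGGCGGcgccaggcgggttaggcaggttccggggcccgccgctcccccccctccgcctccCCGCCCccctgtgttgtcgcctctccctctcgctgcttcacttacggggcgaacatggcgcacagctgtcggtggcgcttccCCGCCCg
Kmt2c: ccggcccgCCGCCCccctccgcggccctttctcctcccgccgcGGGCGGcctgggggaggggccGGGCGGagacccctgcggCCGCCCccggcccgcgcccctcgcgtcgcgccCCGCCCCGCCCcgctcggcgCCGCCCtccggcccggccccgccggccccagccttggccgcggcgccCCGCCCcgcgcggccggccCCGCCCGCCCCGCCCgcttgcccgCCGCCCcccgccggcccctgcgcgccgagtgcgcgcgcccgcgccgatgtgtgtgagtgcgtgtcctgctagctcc
Kmt2d: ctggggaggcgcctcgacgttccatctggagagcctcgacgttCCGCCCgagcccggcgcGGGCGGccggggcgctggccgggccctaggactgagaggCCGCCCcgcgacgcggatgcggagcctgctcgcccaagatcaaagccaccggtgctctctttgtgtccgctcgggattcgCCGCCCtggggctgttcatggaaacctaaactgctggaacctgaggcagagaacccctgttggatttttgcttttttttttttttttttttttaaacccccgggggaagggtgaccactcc
Setd1a: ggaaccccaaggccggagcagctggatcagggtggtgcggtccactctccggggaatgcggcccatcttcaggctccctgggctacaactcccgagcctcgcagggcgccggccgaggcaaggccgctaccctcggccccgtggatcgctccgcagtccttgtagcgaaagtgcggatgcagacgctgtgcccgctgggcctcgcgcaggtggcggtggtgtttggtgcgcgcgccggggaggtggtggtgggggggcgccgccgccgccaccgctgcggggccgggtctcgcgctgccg

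The window of *Kmt2c* held 12 GC boxes and 56 CpG dinucleotides, more CpGs than 99.8% of the 27025 promoter windows in the table, whose median was 7. *Kmt2a* held 5 GC boxes and 36 CpGs, and *Kmt2d* held 4 GC boxes and 27 CpGs. The *Kmt2d* window lies inside the span that RefSeq lists for the gene (chr15:98831669-98874077) and does not reach its 5′ end. A GC box was found in 35.9% of all windows, and 4 or more in 5.50%. *Setd1a* held 35 CpGs, close to the 36 of *Kmt2a*, without a GC box. *Kdm5b* (chr1:134559928-134560227) had 1 GC box and 17 CpGs, and *Kdm5c* (chrX:152232977-152233276) had no GC box and 13 CpGs. Of the other motifs searched on both strands, AAGATGG (the YY1 core, in 6.48% of all windows) was present in *Setd1a* and *Kdm5c*, and CCAAT (in 37.9%) in *Kdm5c*. None of the 6 windows held the E-box CACGTG (in 7.24% of all windows), the cyclic AMP response element TGACGTCA (in 1.88%), the ETS site CCGGAAG (in 9.12%) or the TATA box TATAAA (in 14.2%). These matches describe the sequence of the annotated promoter only, and the start site of the isoform that was counted is not given in the sources used here.

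Total counts ranged from 8054596 to 12024841 in the d6PGCLC libraries and from 7991437 to 11166023 in the PGC libraries. The sorted cells were checked against marker genes: 10 germ cell markers summed to 3947 to 4553 CPM (the read count scaled to library size, here with TMM factors) in d6PGCLCs and 4512 to 5046 CPM in PGCs, with 5 of the 10 called higher in d6PGCLCs and 3 lower. *Prdm1*, a gene of germ cell specification, lay at 407 to 502 CPM in d6PGCLCs against 167 to 208 CPM in PGCs, and *Ddx4*, a late germ cell gene, at 27.2 to 42.8 against 626 to 836 CPM. The 9 markers of gonadal somatic cells in the table summed to 1.16 to 2.55 CPM in d6PGCLCs and 5.33 to 8.73 CPM in PGCs, with *Tcf21* and *Amhr2* at 3 counts or fewer summed over each group, and 5 of the 9 were called lower in d6PGCLCs. The 5 endothelial and blood markers in the table summed to 19.9 to 34.5 CPM in d6PGCLCs and 14.5 to 24.2 CPM in PGCs, with 1 called higher, and 4 epiblast-like markers to 20.0 to 34.8 CPM and 20.1 to 24.5 CPM, with 1 called higher and 2 lower. The part of such cells in the differences below was not tested. The 5 Y-linked genes checked had 97 counts in PGC replicate 4 and none in the other 7 libraries.

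All 9 enzymes had a lower fitted level in d6PGCLCs than in PGCs, and 5 passed the test. The methyltransferases *Kmt2a*, *Kmt2b*, *Kmt2c* and *Kmt2d* and the demethylase *Kdm5a* were lower in d6PGCLCs, by 1.30- to 2.74-fold. *Setd1a*, *Setd1b*, *Kdm5b* and *Kdm5c* did not pass the test. All 21950 genes were tested with edgeR's quasi-likelihood test and called where the p adjusted over them by the Benjamini-Hochberg method did not exceed 0.05, and every adjusted p below comes from them unless another fit is named. Over all genes, 31.5% were called, 15.4% lower and 16.1% higher in d6PGCLCs. Among the 8128 genes averaging 100 counts or more, which include every member but *Setd1b*, 25.8% were called lower and 28.3% higher. A change of at least 1 on the log2 scale, together with the adjusted p, was found for *Kmt2a* and *Kmt2c* and for 14.7% of all genes. That share includes the 4940 genes without counts and was not taken over genes averaging 100 counts or more. For the same 5 enzymes that were called, the 4 values in d6PGCLCs did not overlap the 4 values in PGCs, as was the case for 30.2% of all genes and 51.8% of those averaging 100 counts or more. The median log2 fold change was -0.66 over the methyltransferases, -0.13 over the demethylases and 0 over all genes. In bulk libraries, fewer cells with a transcript and less transcript per cell cannot be told apart.

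**Figure D1:**
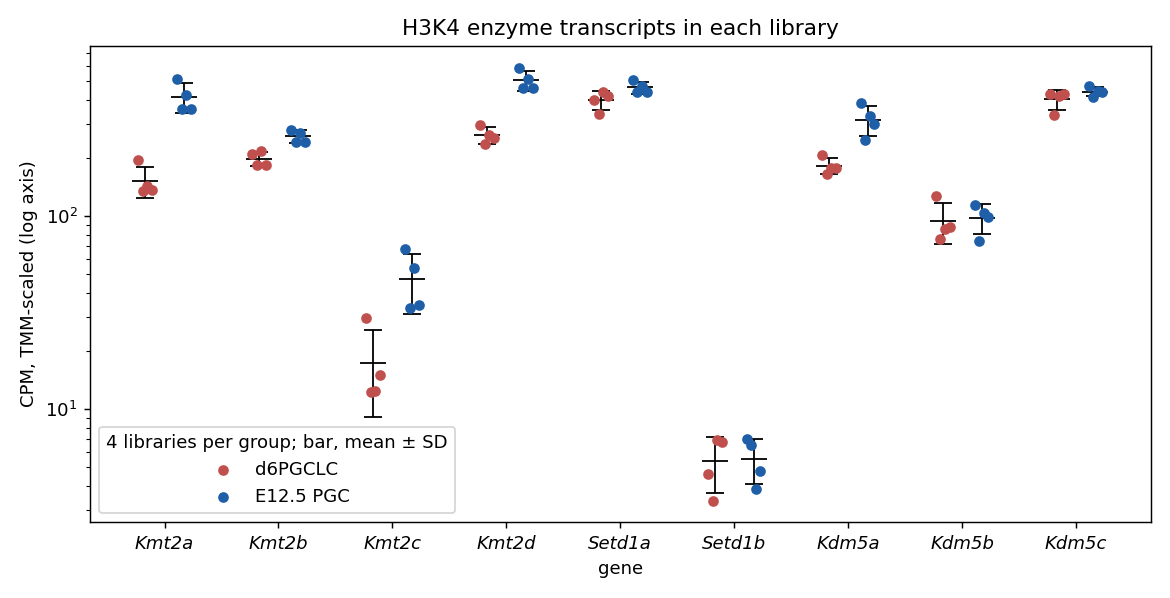
CPM of each enzyme in each library on a log axis, with 4 points per group (red, d6PGCLC, blue, E12.5 PGC) and bars at the mean ± SD. The groups are separated for *Kmt2a*, *Kmt2b*, *Kmt2c*, *Kmt2d* and *Kdm5a* and overlap for the other 4, and heights cannot be compared between genes because CPM is not scaled to transcript length.

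*Kmt2a* (Entrez 214162, chr9:44803355-44881352, GRCm38) encodes the founding mammalian member of the family, which maintains *Hox* gene expression. Its CPM was 194, 135, 142 and 135 in d6PGCLC replicates 1 to 4 and 513, 359, 422 and 359.5 in PGC replicates 1 to 4. The lowest PGC library thus lay well above the highest d6PGCLC library, which was replicate 1. The means were 152 ± 28.3 and 413 ± 72.5 CPM (SD, n = 4 each). The log2 fold change was -1.45 ± 0.12 (SE, 95% interval -1.70 to -1.19, adjusted p = 7.93e-09), a level 2.73-fold lower in d6PGCLCs.

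*Kmt2b* (Entrez 75410, chr7:30568855-30589056) is the closest paralog of *Kmt2a*. Its CPM was 208, 183, 217 and 183 in d6PGCLCs and 279, 243, 269 and 241 in PGCs. The groups did not overlap, but the nearest libraries were close. In the fit its log2 fold change was -0.38 ± 0.09 (SE, 95% interval -0.57 to -0.19, adjusted p = 0.00212). The decrease of *Kmt2b* was therefore 1.30-fold, against 2.73-fold for *Kmt2a*, and the difference between the genes was not tested.

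*Kmt2c* (Entrez 231051, chr5:25271795-25498855) and *Kmt2d* (Entrez 381022, chr15:98831669-98874077) encode the large catalytic subunits of the enhancer complexes. *Kmt2c* had 29.6, 12.3, 12.4 and 15.0 CPM in d6PGCLCs and 67.2, 33.5, 53.5 and 34.6 CPM in PGCs, on counts of 121 to 232 and 318 to 580. *Kmt2d* had 296, 236, 261 and 254 CPM in d6PGCLCs and 586, 461, 513 and 459 CPM in PGCs. For *Kmt2c*, d6PGCLC replicate 1 lay close to PGC replicates 2 and 4, whereas for *Kmt2d* the gap between the groups was wider than the spread of the d6PGCLC libraries. Log2 fold changes were -1.46 ± 0.24 for *Kmt2c* (SE, 95% interval -1.96 to -0.95, adjusted p = 6.53e-05) and -0.95 ± 0.10 for *Kmt2d* (SE, 95% interval -1.15 to -0.75, adjusted p = 9.61e-08). These correspond to levels 2.74-fold and 1.93-fold lower in d6PGCLCs. A term for the deviation of other long genes, described below, moved *Kmt2c* to -0.71.

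*Setd1a* (Entrez 233904, chr7:127777389-127800122) is required for early embryonic development. Its CPM was 397, 336, 439 and 415 in d6PGCLCs and 507, 437, 469 and 438 in PGCs. The groups overlapped through d6PGCLC replicate 3, which lay above PGC replicates 2 and 4. Its log2 fold change was -0.22 ± 0.09 (SE, 95% interval -0.42 to -0.03, adjusted p = 0.0763). *Setd1a* sat at the border of the call: it was called lower under 7 of the alternatives, including DESeq2 (log2 fold change -0.24, adjusted p = 0.0489) and the fit without d6PGCLC replicate 3 (-0.28, adjusted p = 0.0343). It was not called with the length offset (-0.15, adjusted p = 0.149). With each library left out in turn, its log2 fold change reached -0.16 and its adjusted p reached 0.225.

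*Setd1b* (Entrez 208043, chr5:123142040-123168630), the paralog of *Setd1a*, had 33 to 83 counts in each library, the fewest of the 9 enzymes. Its CPM was 4.59, 3.36, 6.89 and 6.79 in d6PGCLCs and 6.99, 6.52, 3.87 and 4.78 in PGCs. Both groups held high and low libraries and overlapped throughout. The log2 fold change was -0.02 ± 0.26 (SE, adjusted p = 1), and its 95% interval of -0.56 to 0.52 left room for a change of either sign.

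Of the demethylases, *Kdm5a* (Entrez 214899, chr6:120364099-120444574), which encodes the retinoblastoma-binding family member, differed between the groups. Its CPM was 207, 165, 178 and 176 in d6PGCLCs and 384, 248, 330.4 and 298 in PGCs. The d6PGCLC libraries were all below the lowest PGC library, which was replicate 2. Its log2 fold change was -0.80 ± 0.11 (SE, 95% interval -1.03 to -0.56, adjusted p = 7.79e-06), a level 1.74-fold lower in d6PGCLCs.

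*Kdm5b* (Entrez 75605, chr1:134560178-134632878) limits lysine 4 methylation at developmental genes in embryonic stem cells. It had 127, 76.0, 85.6 and 88.0 CPM in d6PGCLCs and 114, 74.1, 104 and 98.6 CPM in PGCs. The highest of the 8 values was that of d6PGCLC replicate 1 and the lowest that of PGC replicate 2, so that the groups overlapped over nearly their whole range. The log2 fold change was -0.05 ± 0.14 (SE, 95% interval -0.35 to 0.24, adjusted p = 1).

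*Kdm5c* (Entrez 20591, chrX:152233198-152279102) is X-linked and known to escape X inactivation. Its CPM was 427, 331, 419 and 425 in d6PGCLCs and 468, 410.5, 443 and 437 in PGCs. The groups overlapped, and d6PGCLC replicate 2 stood below the other 7 libraries. The log2 fold change was -0.13 ± 0.09 (SE, 95% interval -0.33 to 0.06, adjusted p = 0.339). The median log2 fold change was -0.07 over 431 X-linked genes with a mean CPM above 1 and 0.01 over 11037 autosomal ones. *Kdm5d*, the Y-linked family member, had no counts in 7 libraries and 3 in PGC replicate 4, the library with the other Y-linked counts.

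**Figure D2:**
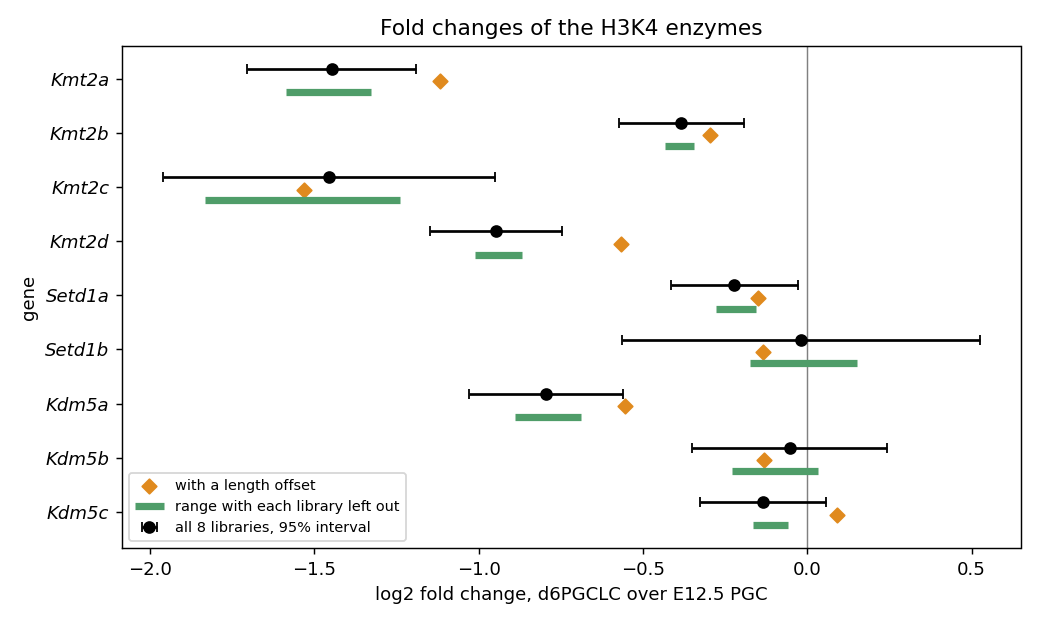
Log2 fold change of each enzyme, d6PGCLC over E12.5 PGC. Black points with bars are the fit to all 8 libraries with its 95% interval, green bars the range when each library in turn was left out, and orange diamonds the fit with a length offset. The interval lies below 0 for *Kmt2a*, *Kmt2b*, *Kmt2c*, *Kmt2d*, *Kdm5a* and, narrowly, *Setd1a*.

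Transcript length was set beside these changes because several of the enzymes are among the longest transcripts of the table. The authors counted reads on 1 isoform per gene, and its exonic length was 22027 bp for *Kmt2d*, 17879 bp for *Kmt2a*, 12089 bp for *Kdm5a* and 12055 bp for *Kdm5c*, at percentiles of 99.99, 99.9, 99.6 and 99.6 of the lengths of all genes, whose median was 2257 bp. *Kmt2b* (6980 bp) and *Setd1a* (6691 bp) were in the upper range, and *Kmt2c* (3304 bp), *Kdm5b* (3249 bp) and *Setd1b* (2455 bp) nearer the middle. The last 3 lengths, and that of *Kmt2b*, fell short of the longest coding sequence that GENCODE lists for the gene. For *Kmt2c* the counted isoform covered 3304 bp against a coding sequence of 14712 bp (0.225 of it), for *Setd1b* 0.412, for *Kdm5b* 0.701 and for *Kmt2b* 0.855. The values of these 4 genes therefore describe part of the transcript.

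The median fold change differed between length classes, which was not tested. Among genes with a mean CPM above 1, the median log2 fold change was 0.02 for 3182 genes under 2000 bp, 0.04 for 4917 genes of 2000 to 4000 bp, -0.03 for 2962 genes of 4000 to 8000 bp and -0.22 for 426 genes of 8000 bp and over. In the longest of these classes, 40.1% were called lower and 21.4% higher. The 78 genes of 12000 bp and over, a class added after the values were seen, had a median of -0.37, with 50% called lower and 16.7% higher. *Kmt2a* (-1.45), *Kmt2d* (-0.95) and *Kdm5a* (-0.80) lay below that median and *Kdm5c* (-0.13) above it. By its counted isoform, *Kmt2c* (-1.46), with a fall about the size of that of *Kmt2a*, was in the class of 2000 to 4000 bp. So were *Setd1b* and *Kdm5b*, which did not pass the test. Each of these genes has a listed coding sequence longer than its counted isoform, of 14712 bp for *Kmt2c*.

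**Figure D3:**
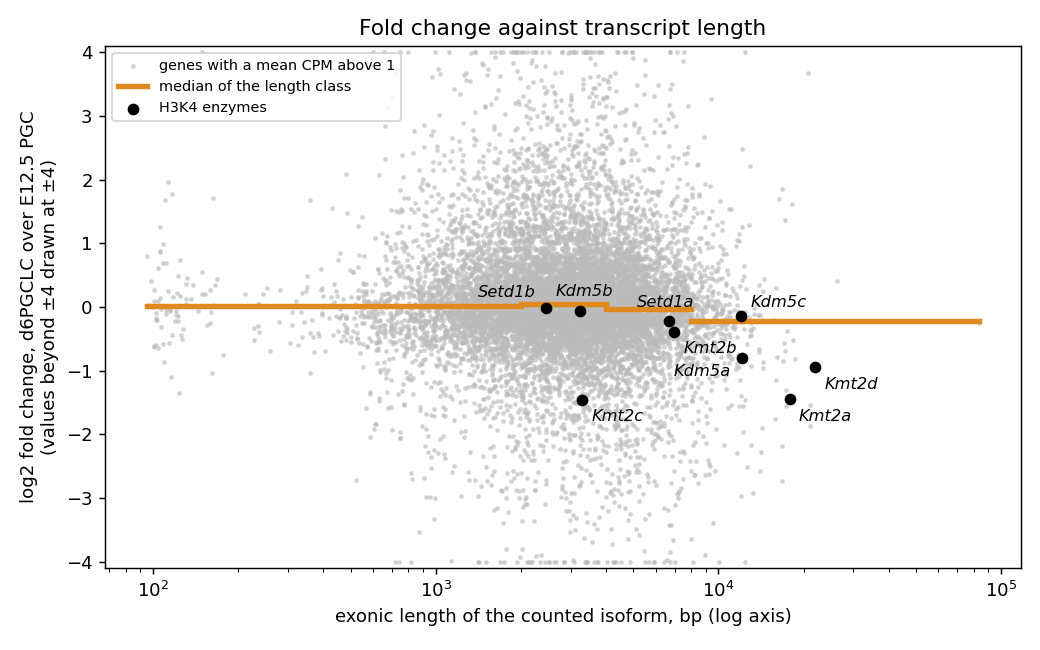
Log2 fold change (d6PGCLC over E12.5 PGC) against the exonic length of the counted isoform in bp on a log axis, for genes with a mean CPM above 1 (grey), with values beyond ±4 drawn at ±4. Orange lines give the median of each length class, from 0.02 for the shortest to -0.22 for the longest, and black points the 9 enzymes, of which *Kmt2a*, *Kmt2d* and *Kdm5a* lie below the line of the longest class.

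With a smooth offset for exonic length fitted to each library, the same 5 enzymes were called lower, at reduced size for the long ones. It was -1.12 for *Kmt2a* on the log2 scale (adjusted p = 1.71e-10), -0.57 for *Kmt2d* (adjusted p = 1.65e-06), -0.56 for *Kdm5a* (adjusted p = 4.36e-06), -0.30 for *Kmt2b* (adjusted p = 0.00463) and -1.53 for *Kmt2c* (adjusted p = 1.26e-05). *Kdm5c* had the opposite sign under the offset, 0.09 (adjusted p = 0.455), and remained without a call. The offset was set by the counted length, 12055 bp for *Kdm5c* and 3304 bp for *Kmt2c*. Since the longest coding sequence listed for *Kmt2c* is 14712 bp, its value under the offset does not allow for the whole transcript.

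Long genes also differed between libraries of the same group. The median deviation of the other long genes from their mean over the libraries was 0.05, -0.21, -0.14 and -0.08 on the log2 scale in d6PGCLC replicates 1 to 4 and 0.25, -0.07, 0.15 and 0.04 in PGC replicates 1 to 4. The libraries with the highest values, PGC replicate 1 and PGC replicate 3, were also the 2 highest for the called *Kmt2a*, *Kmt2b*, *Kmt2c*, *Kmt2d* and *Kdm5a*. They were so too for *Setd1a* and *Kdm5c*, which were not called. In its group, d6PGCLC replicate 1 was the highest for *Kmt2a*, *Kmt2c*, *Kmt2d*, *Kdm5a*, *Kdm5b* and, narrowly, *Kdm5c*. The libraries nearest to each other across the groups in this measure, looked up after the values were seen, were d6PGCLC replicate 1 (0.05) with PGC replicate 4 (0.04) and d6PGCLC replicate 4 (-0.08) with PGC replicate 2 (-0.07). In these pairs *Kmt2a* was at 194 against 359.5 and 135 against 359 CPM, *Kmt2d* at 296 against 459 and 254 against 461 CPM, *Kdm5a* at 207 against 298 and 176 against 248 CPM, and *Kmt2c* at 29.6 against 34.6 and 15.0 against 33.5 CPM. The pairs are 2 of the possible ones and no test was made on them. With this deviation as a term in the fit, a choice made after the values were seen, the log2 fold change was -1.11 for *Kmt2a* (adjusted p = 2.82e-08), -0.73 for *Kmt2d* (adjusted p = 1.02e-06), -0.71 for *Kmt2c* (adjusted p = 0.00268), -0.48 for *Kdm5a* (adjusted p = 0.000336) and -0.27 for *Kmt2b* (adjusted p = 0.0460). *Kdm5b* changed sign to 0.35 (adjusted p = 0.0234) and was called higher in that fit only. What moved the long genes together was not tested.

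Levels of different enzymes were compared per length, as RPKM (CPM per kb of the counted exons). In d6PGCLCs *Setd1a* was highest, at 59.3 ± 6.58 RPKM (SD, n = 4), followed by *Kdm5c* at 33.2, *Kdm5b* at 29.0, *Kmt2b* at 28.3, *Kdm5a* at 15.0, *Kmt2d* at 11.9, *Kmt2a* at 8.48, *Kmt2c* at 5.25 and *Setd1b* at 2.20 RPKM. Neighbours whose 4 values overlapped, and whose order is thus within the spread, were *Kdm5c* and *Kdm5b*, *Kdm5b* and *Kmt2b*, *Kmt2d* and *Kmt2a*, and *Kmt2a* and *Kmt2c*. In PGCs the order was *Setd1a* at 69.2, *Kmt2b* at 37.0, *Kdm5c* at 36.5, *Kdm5b* at 30.1, *Kdm5a* at 26.1, *Kmt2a* at 23.1, *Kmt2d* at 22.9, *Kmt2c* at 14.3 and *Setd1b* at 2.26 RPKM. There the values of neighbours overlapped from *Kmt2b* down to *Kmt2d*. By the counted lengths, *Setd1a* stood above every other enzyme and *Setd1b* below, in both groups. The levels of *Kmt2b*, *Kmt2c*, *Setd1b* and *Kdm5b* rest on partial isoforms. For *Kdm5c* the counted length of 12055 bp exceeded the 5900 bp of the GENCODE transcript with its longest coding sequence. A shorter length would raise the RPKM of *Kdm5c* and could change its order relative to *Setd1a*.

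*Setd1a* made up 51.3% ± 2.92 (SD, n = 4) of the summed RPKM of the 6 methyltransferases in d6PGCLCs and 41.1% ± 1.73 in PGCs, with ranges of 47.7 to 54.1% and 39.0 to 42.7%. The share of *Kmt2a* was 7.35% ± 1.05 against 13.6% ± 0.791, and that of *Kmt2d* 10.3% ± 0.569 against 13.6% ± 0.101. The share of *Kmt2b*, which was called lower in CPM, was higher in d6PGCLCs, at 22.9 to 26.3% against 20.6 to 22.6%. The groups did not overlap in the shares of these 4 genes but did for *Kmt2c* and *Setd1b*, and no test was made on shares. The summed level was 115 ± 11.2 RPKM in d6PGCLCs and 169 ± 19.4 RPKM in PGCs. Among the demethylases, *Kdm5a* had 19.6% ± 1.13 of the sum in d6PGCLCs and 28.0% ± 1.57 in PGCs, and the summed level was 77.2 ± 11.1 against 92.6 ± 11.8 RPKM. The methyltransferase sum was 1.504 ± 0.113 times the demethylase sum in d6PGCLCs and 1.83 ± 0.126 times in PGCs, with ranges of 1.36 to 1.62 and 1.68 to 1.99. The sums, shares and ratio rest on the counted lengths and would differ with other isoforms, among them that of *Kdm5c*.

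**Figure D4:**
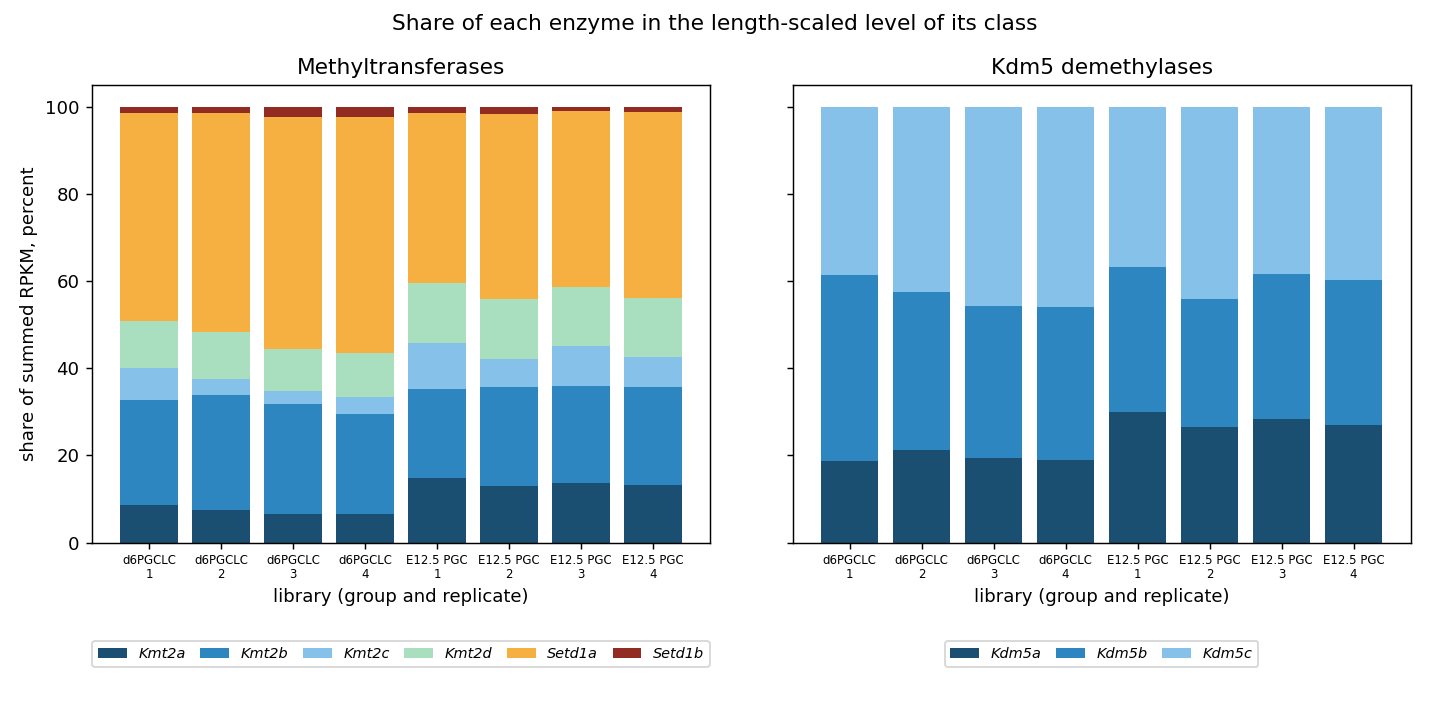
Share of each enzyme, in percent, in the summed RPKM of the 6 methyltransferases (left) and of the 3 Kdm5 demethylases (right), 1 bar per library. *Setd1a* takes 47.7 to 54.1% of the left bars in d6PGCLCs and 39.0 to 42.7% in E12.5 PGCs, and *Kdm5a* takes 19.6% of the right bars on average in d6PGCLCs and 28.0% in E12.5 PGCs.

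The subunits that join these enzymes in complexes were called in both directions. Of 14 subunits in the table, 4 were called lower and 2 higher in d6PGCLCs, with a median log2 fold change of -0.08. All 14 averaged over 100 counts, and of all genes at that level 25.8% were called lower and 28.3% higher. Among the core subunits, *Wdr5*, the scaffold that docks the catalytic subunits, was lower, at 329 ± 33.2 CPM in d6PGCLCs and 424 ± 34.4 CPM in PGCs (log2 fold change -0.37 ± 0.09, SE, adjusted p = 0.00337), a call lost with the long-gene deviation as a term (-0.26, adjusted p = 0.0624). *Rbbp5* (0.18), *Ash2l* (-0.12) and *Dpy30* (0.02) were not called.

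Of the subunits of the SET1 complexes, *Cxxc1*, whose protein binds unmethylated CpG, fell from 133 ± 2.31 CPM in PGCs to 79.99 ± 6.27 CPM in d6PGCLCs (log2 fold change -0.73 ± 0.09, SE, adjusted p = 2.01e-06). *Hcfc1*, an X-linked cofactor shared with other complexes, averaged 638 ± 86.8 CPM in d6PGCLCs against 1046 ± 161 CPM in PGCs (log2 fold change -0.71 ± 0.11, SE, adjusted p = 2.19e-05). *Wdr82*, which links the complex to RNA polymerase II, was called higher (log2 fold change 0.24 ± 0.09, SE, adjusted p = 0.0364). That call was lost on leaving out d6PGCLC replicates 3 or 4 or PGC replicates 1, 2 or 3, with adjusted p up to 0.111. *Bod1* (-0.17) and *Bod1l* (0.01) were not called, although *Bod1* was called lower with the length offset (-0.28, adjusted p = 0.0189).

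*Men1* (-0.03) and *Psip1* (-0.14), which tether the *Kmt2a* and *Kmt2b* proteins to chromatin, were not called. *Psip1* was called lower with the length offset (-0.19, adjusted p = 0.0491). In the complexes of *Kmt2c* and *Kmt2d*, *Kdm6a*, an X-linked demethylase of lysine 27, was higher in d6PGCLCs, at 185 ± 32.5 CPM against 122 ± 3.44 CPM (log2 fold change 0.60 ± 0.11, SE, adjusted p = 0.000165). It thus went in the opposite direction to both catalytic subunits. The coactivator *Ncoa6* was called lower (-0.46 ± 0.16, SE, adjusted p = 0.0335), but its groups overlapped, and the call was lost without d6PGCLC replicates 2, 3 or 4 or PGC replicates 1 or 3 (adjusted p up to 0.151). *Paxip1* was at 126 ± 3.98 and 127 ± 4.31 CPM (log2 fold change -0.01). With the long-gene deviation as a term, *Wdr82* (0.26, adjusted p = 0.0515) and *Ncoa6* (0.03) were not called, while *Rbbp5* (0.31) and *Bod1l* (0.36) were called higher and *Dpy30* (-0.43) and *Bod1* (-0.33) lower.

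Over all 33 genes of the wider pathway in the table, which adds other lysine 4 methyltransferases, demethylases and readers of the mark to the subunits, 11 were called lower and 4 higher, with a median log2 fold change of -0.12, where 15.4% of all genes tested, and 25.8% of those averaging 100 counts or more, were called lower and 16.1% and 28.3% higher. Of the 6 other methyltransferases and relatives, 2 were lower, and of 10 readers 4 were lower and 2 higher. Of the 3 other lysine 4 demethylases 1 was lower, *Kdm1b* (log2 fold change -0.76 ± 0.11, SE, adjusted p = 6.90e-06), which is named here after its values were seen and acts on mono- and dimethylation in growing oocytes. *Phf8*, an X-linked reader of trimethylated lysine 4 that removes methyl groups from other lysines, was the only one of the 33 to be called with a change of at least 1 on the log2 scale. Its mean was 13.8 ± 3.83 CPM in d6PGCLCs against 29.6 ± 8.20 CPM in PGCs (log2 fold change -1.09 ± 0.21, SE, adjusted p = 0.000246), with no overlap between the groups. With the long-gene deviation as a term, that call was lost (-0.56, adjusted p = 0.0568).

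The genes whose log2 CPM most resembled that of *Kmt2c* were *Tnrc6b* (a microRNA silencing factor), *Klhl11* (a ubiquitin ligase adaptor) and *Srp72* (a signal recognition particle subunit), with Pearson correlations of 0.99 each over the 8 libraries, out of 8128 genes compared. *Kmt2c* (-1.46) was taken for having the lowest log2 fold change in the fit, but it did not differ from *Kmt2a* (-1.45) beyond their standard errors, and *Kmt2a* was the lower with DESeq2 (-1.458 against -1.456) and the long-gene term (-1.11 against -0.71), and also with a prior count of 2 and without d6PGCLC replicates 2 or 3 or PGC replicates 1 or 3. The log2 fold changes of the 3 genes were -0.52, -0.64 and -0.28. All genes were measured in the same 8 libraries, which form 2 groups and differ in depth and long-gene deviation. These correlations therefore describe a likeness of pattern only. No member was called higher, so that no such search was made for a rise.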

How the data were processed

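RNA was isolated from 4 pools each of d6PGCLCs and E12.5 female PGCs (RIN above 8), and stranded poly(A) libraries were sequenced as single-end reads of 100 bp. The authors' deposited table gives, for each gene, unnormalized counts of reads with 1 mapped position, and the exonic length in bp of the isoform that was counted. Per the study's methods, reads were aligned with STAR to GRCm38, 1 isoform per gene was drawn at random from the UCSC known genes, and reads on its exons were counted with QuasR. Whether counting used strand is not given in the sources used here, so that reads of an antisense or overlapping gene cannot be told apart.

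Entrez identifiers were matched to RefSeq symbols (21907 of 21950), and 4940 genes had no counts. Counts were scaled with TMM and tested with edgeR 4.0.16 (glmQLFit and glmQLFTest, R 4.3.3), with cell type as the only term, no filter on low counts and Benjamini-Hochberg adjustment over all genes. Fold changes are d6PGCLC over PGC. CPM and RPKM use TMM-scaled library sizes. Relative to the unscaled library totals, 3 counts correspond to 0.249 to 0.375 CPM, which covers counting error only. Replicate libraries all differed by more than sampling noise (chi-square divided by its degrees of freedom at least 3.35). The script was tested on simulated counts.

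The alternatives were a likelihood ratio test, DESeq2 1.42.0, other scalings, filters on low counts (edgeR's filterByExpr, or CPM above 1 in at least 3 libraries), a prior count of 2 in place of 0.125, a length offset (loess with a span of 0.5), a replicate block, each library left out, and a long-gene term added after the data were seen. That term was the median deviation of 422 genes of 8000 bp and over with a mean CPM above 1, other than the enzymes. Counted lengths were set against the longest coding sequence in GENCODE M21, since no protein table was used here. All members and subunits are named, other pathway genes where called with a log2 change of at least 1 or where no library exceeded 3 counts (*Kdm1b*, outside this rule, was named after its values were seen), and for likeness the 3 genes of highest correlation among those with a mean of at least 100 counts. The enzymes and lists were chosen with earlier results of these data known. Of 35 listed pathway genes, 33 were analysed here. The figures and self-checks used Python 3.11.15.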

Additional observations from a re-analysis of the deposited data

Results flagged for a closer look

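Single libraries that stood apart from the other 3 of their group were found for 3 of the enzymes and 2 subunits, out of 50 sets of 4 values examined, where chance gives about 1 in 20, or 2.5. d6PGCLC replicate 1 stood above its group for *Kmt2a*, at 194 CPM against 135 to 142 CPM in the other 3 libraries, and for *Kmt2c*, at 29.6 CPM against 12.3 to 15.0 CPM. Without it the log2 fold changes were -1.59 for *Kmt2a* and -1.83 for *Kmt2c*, against -1.45 and -1.46 with all libraries. d6PGCLC replicate 2 stood below its group for *Kdm5c*, at 331 CPM against 419 to 427 CPM, and the log2 fold change without it was -0.06. PGC replicate 2 was below the other PGC libraries for *Wdr5*, at 373 CPM against 438 to 448 CPM, and for *Psip1*, at 325 CPM against 385 to 389 CPM.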

How the results depend on the processing

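The 5 enzymes called lower kept their direction and their call in every fit that was run. With all settings at the stated threshold, 5 or 6 enzymes were called, and from 5 to 6 when each library was left out. With a log2 change of 1 or more in either direction, 2 enzymes, 1 of the wider pathway genes and 3237 of all genes were called, and at 2 or more 0, 0 and 1452. *Setd1a* was called lower with DESeq2 (-0.24), library size alone (-0.26), the upper quartile (-0.26), the CPM filter (-0.24), filterByExpr (-0.24), the replicate block (-0.23) and without d6PGCLC replicate 3 (-0.28). The replicate numbers are not stated to pair the libraries. The correlations of same-numbered libraries across the groups were 0.27, 0.10, -0.02 and 0.04, and those of differently numbered ones ran from -0.18 to 0.11. Whether same-numbered libraries share more than a number was not tested. With the replicate block 6 enzymes, 15 pathway genes and 7270 of all genes were called, against 5, 15 and 6919 without it, and not every library correlated best with its own number. The long-gene term, chosen after the data were seen, left 5 enzymes called lower, called 1 (*Kdm5b*, 0.35) higher, and moved *Kmt2c* from -1.46 to -0.71. It called 10 of the pathway genes, against 15 without it, and the length offset called 17.

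Several log2 fold changes near 0 changed sign, as did that of *Ncoa6*, called lower at -0.46, under the long-gene term, and the cause was not tested. On leaving out 1 library, the range was -0.17 to 0.15 for *Setd1b*, -0.23 to 0.033 for *Kdm5b*, -0.13 to 0.16 for *Dpy30*, -0.060 to 0.12 for *Bod1l*, -0.10 to 0.019 for *Men1*, -0.034 to 0.0090 for *Paxip1* and 11 to 15 for the pathway genes called. Without PGC replicates 2 and 4, *Setd1b* was at 0.016 and *Bod1l* at -0.19. With the length offset, *Kdm5c* was at 0.092 and *Dpy30* at -0.041. With the long-gene term, *Setd1b* was at 0.020, *Kdm5c* at 0.0089, *Dpy30* at -0.43, *Ncoa6* at 0.026 and *Paxip1* at 0.024. With library size alone *Dpy30* was at -0.014 and *Bod1l* at -0.023, and with the upper quartile at -0.020 and -0.029. *Bod1l* was at -0.0017 with DESeq2 and with its size factors, -0.0039 with the CPM filter and -0.0061 with filterByExpr. At 33 to 83 counts, *Setd1b* had the fewest counts of the 9 enzymes.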
